A study of Mus musculus with 50 samples.

Results

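Thyroids of mice given antibodies against the receptors Notch1 and Notch2 were compared 5 days and 15 hours after the injection. The members were chosen by their titles: 5 libraries labelled aN1aN2 at 5 days and 5 labelled aN1aN2 at 15 hours, 10 of the 50 RNA-seq libraries of the series. All mice were adult C57BL/6 males, 10 to 14 weeks old by the protocol and 10 to 12 by the design text. The aN1aN2 mice had received anti-Notch1 at 5 mg/kg and anti-Notch2 at 10 mg/kg, given together in a single intraperitoneal dose. As a reference at the same times, 10 libraries from mice given an anti-ragweed isotype control antibody (RW) at 40 mg/kg are set beside them, 5 per time. RW at 15 hours differs from the other groups in scaling block and in tissue content, as given below, so RW is not a reference for time alone. No aN1aN2 mouse was sampled before the injection, so each difference is between 2 times after the same treatment. The design text also mentions injections of thyroid hormone from day 2. The labels do not say which mice received them, and the hour of day at which tissue was taken is not given in the sources used here.

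Notch receptors are cleaved when a ligand on a neighbouring cell binds them, and the released intracellular part joins the DNA-binding factor RBPJ to switch on genes such as Hes1, Hey1, Heyl and Nrarp. In blood vessel walls, Notch3 and Heyl are read out in pericytes and smooth muscle. The thyroid consists of follicles of epithelial cells that make and iodinate thyroglobulin (Tg) and take up iodide through Slc5a5, under the control of the thyrotropin receptor Tshr. Around the follicles lie capillaries, fibroblasts, macrophages and calcitonin-producing C cells, and the parathyroids and neck muscle adjoin the gland.

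Total counts per library ranged from 26.9 to 42.9 M at 15 hours and from 28.7 to 45.7 M at 5 days. Tg took 7.37 to 36.8% of counts at 15 hours and 8.80 to 41.3% at 5 days, so the labelled tissue was present in every library in unequal amounts. The mean Tg share was 21.5 ± 12.4% (SD, n = 5) at 15 hours and 27.6 ± 15.2% at 5 days (exact two-sided permutation test, p = 0.484). A skeletal muscle list took 0.196 to 6.64% of counts at 15 hours and 0.351 to 9.89% at 5 days, again without a difference between the groups past the threshold (exact permutation p = 0.762). Replicates 2 and 5 at 15 hours and replicate 1 at 5 days had 7304, 14176 and 10259.6 summed CPM (counts scaled to library size) of airway epithelium markers, against 4.74 to 337 in the other 7 libraries. Replicate 4 at 5 days had 1426 CPM of thymus and T cell markers, against 2.92 to 175 in the other 9. These libraries stand apart. Those with airway markers are found in both groups, whereas that with the high T cell markers is at 5 days only. No member of any marker list was at 0 counts over all 10 libraries. The plot of composition by library gives these shares. In the RW reference, replicate 3 at 5 days had a Tg share of 0.450%, and tests that use RW were therefore repeated without it, whereas RW ranges of CPM include it. The RW libraries at 15 hours held 53.6 to 237 CPM of a list of liver-made plasma proteins. That list was at 0.426 to 2.36 CPM in RW at 5 days. In aN1aN2 it was at 1.73 to 2.94 CPM at 15 hours and 1.36 to 7.01 CPM at 5 days. Of its 9 genes, 8 passed in RW, lower at 5 days (1.18% of all genes). In the test of the difference of time effects given below, 8 passed, higher in aN1aN2 relative to RW (0.406% of all genes).

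**Figure D1:**
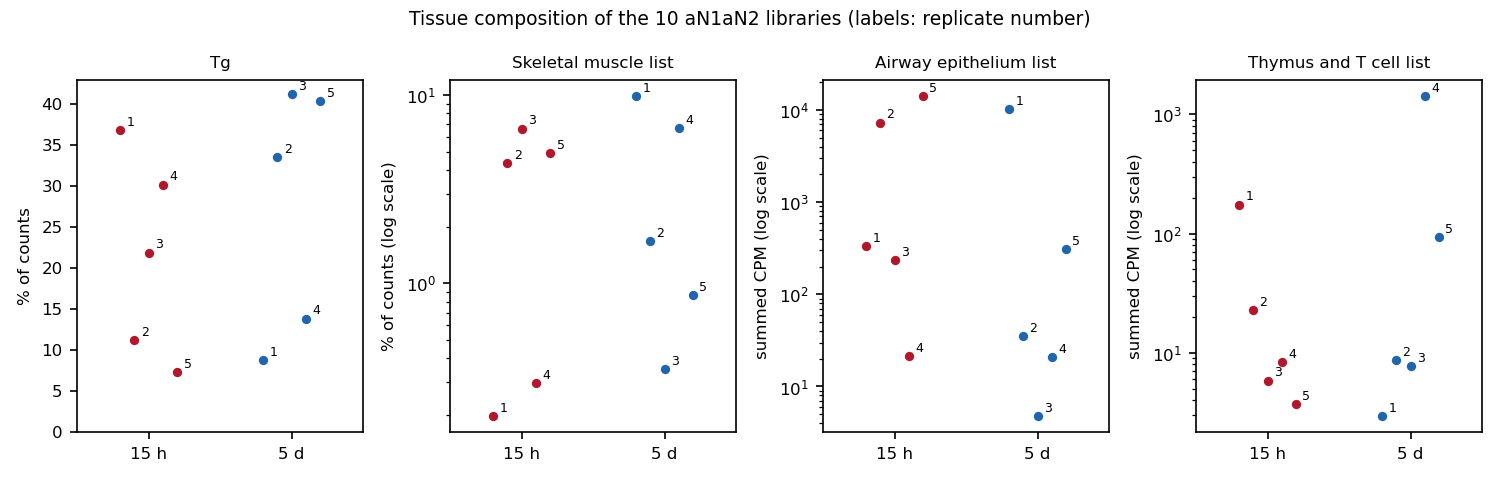
Composition of the 10 aN1aN2 libraries, as the percentage of counts from Tg and from the skeletal muscle list and as the summed CPM of the airway epithelium and the thymus and T cell lists; each point is a library labelled with its replicate number. Tg spans 7.37 to 36.8% at 15 hours and 8.80 to 41.3% at 5 days, and the T cell list reaches 1426 CPM in replicate 4 at 5 days.

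At 5 days, 42 of 18094 genes tested differed from 15 hours (0.232% of genes; edgeR quasi-likelihood test, Benjamini-Hochberg adjusted p under 0.05). Of these, 34 were lower (0.188%) and 8 were higher (0.0442%) at 5 days, and 34 changed at least 2-fold. The lower genes included genes known to be induced by interferons (Bst2, Irf7, Ifit3, Gbp3), genes of macrophages (Fcgr1, Siglec1), the acute-phase genes Hp and Lrg1, and chaperone genes (Serpinh1, Hspa8, Hsp90aa1). The higher genes included 4 of the circadian clock (Dbp, Nr1d1, Nr1d2, Per3). Every one of the 42 had 5-day values that lay wholly outside the range of the 15-hour values. Over all genes tested, 345 had 5-day values wholly below (1.91%) and 176 wholly above (0.973%) the 15-hour values. At an unadjusted p under 0.05 there were 1077 lower genes (5.95%) and 809 higher ones (4.47%), and the median log2 fold change of all genes tested was −0.01. In these whole-tissue samples, fewer cells of a type and less RNA per cell cannot be told apart.

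The number of genes that passed depended on single libraries. Without replicates 1 to 5 at 15 hours, in that order, 9, 8, 6, 6 and 13 genes passed, and without replicates 1 to 5 at 5 days 41, 8, 7, 41 and 6 passed. Bst2, Gbp3, Gbp5, Fcgr1, Serpinh1 and Nr1d2 passed in each of these 10 fits, and each of the other 36 genes missed the threshold in at least 1 of them. All 42 kept their direction in every alternative fit. Of the 42 genes, 37 are annotated as protein coding. The others (Gm7676, Gm10076, Gm12250, Fth-ps3 and Gm5844) are uncertain where reads could come from near-identical copies. The plot of fold change against p shows the 42 genes among all genes tested.

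**Figure D2:**
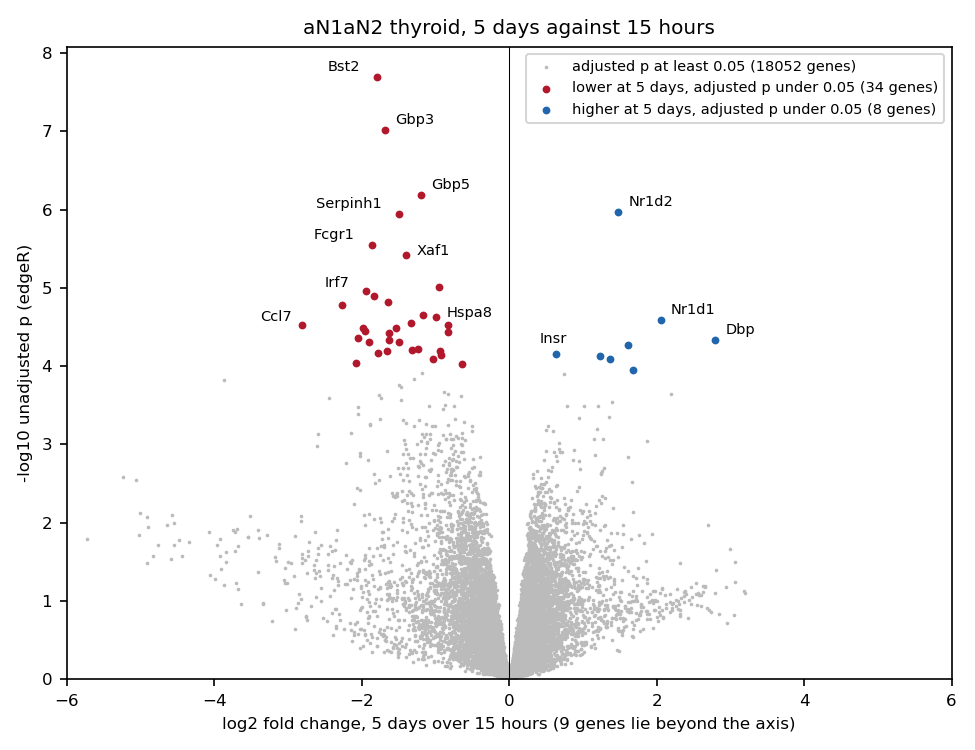
Log2 fold change (5 days over 15 hours) against −log10 of the unadjusted p for the 18094 genes tested in aN1aN2 thyroids, of which 9 lie beyond the horizontal axis. The 34 genes that were lower at 5 days (red) and the 8 that were higher (blue) passed an adjusted p of 0.05, with Bst2 at the top.

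The interferon-stimulated genes are switched on when interferons, secreted on infection or injury, activate factors such as Stat2 and Irf9, and their products block viral replication. All 27 members of the list were tested, and 7 passed, each lower at 5 days (0.188% of all genes). Among them were Bst2, Irf7, Ifit3, Oas1a, Rtp4 and Xaf1. DESeq2 called 18 of the 27, but it also called more of all genes, 337 against 42 in edgeR. All 27 had negative log2 fold changes, from −3.84 to −0.28 with a median of −1.49, against −0.01 over all genes. The 5-day values lay wholly below the 15-hour values for 20 of the 27 (1.91% of all genes), and 23 had an unadjusted p under 0.05 in that direction (5.95% of all genes). The summed level of the list was 736, 706, 569, 607 and 542 CPM in replicates 1 to 5 at 15 hours, and 366, 287, 315, 274 and 281 CPM at 5 days. Every 15-hour library was above every 5-day library. The part of other tissue, such as airway or thymus, in this change was not tested. The list's median stayed between −1.75 and −1.38 when each library was left out in turn.

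Bst2 encodes tetherin, a membrane protein that holds budding viruses at the cell surface. It was at 35.3, 28.2, 34.2, 35.9 and 35.9 CPM in replicates 1 to 5 at 15 hours. At 5 days it was at 9.14, 9.04, 9.23, 11.2 and 9.87 CPM. The 2 ranges were far apart, and the log2 fold change was −1.79 (SE 0.12, edgeR adjusted p = 0.000368), the smallest adjusted p of the comparison. In RW thyroids Bst2 ranged from 11.5 to 21.6 CPM at 15 hours and from 7.71 to 14.0 CPM at 5 days, so all 5 aN1aN2 libraries at 15 hours lay above all 10 RW libraries.

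Irf7 is the factor that amplifies interferon production. It was at 45.0, 48.6, 42.6, 36.0 and 34.4 CPM at 15 hours and at 17.2, 8.76, 8.18, 12.3 and 7.29 CPM at 5 days. The lowest 15-hour library was still above the highest 5-day one (log2 fold change −1.93, SE 0.24, adjusted p = 0.0223). RW thyroids held 7.19 to 10.4 CPM at 15 hours and 4.92 to 11.5 CPM at 5 days. Irf7 overlaps Phrf1 on the opposite strand, and since the use of strand in counting is not stated, some reads could belong to either gene. Without replicate 2 at 5 days the adjusted p of Irf7 was 0.0915.

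Ifit3, whose product binds viral RNA complexes, was at 28.6, 26.8, 20.5, 22.2 and 23.9 CPM at 15 hours and at 11.4, 6.29, 4.19, 5.06 and 4.04 CPM at 5 days. Replicate 1 was the highest library in each group, and the groups did not overlap (log2 fold change −1.98, SE 0.28, adjusted p = 0.0295). Oas1a makes the signal that activates RNase L. It was at 10.2, 5.57, 5.93, 6.18 and 6.37 CPM at 15 hours and at 2.48, 2.41, 2.07, 1.48 and 2.42 CPM at 5 days, a log2 fold change of −1.65 (SE 0.21, adjusted p = 0.0247). Rtp4 and Xaf1 changed by −1.84 and −1.40 on the log2 scale (adjusted p = 0.0229 and 0.00992). Rtp4 overlaps another annotated gene on the same strand (Gm45338). Leaving out a library raised the adjusted p of these genes to at most 0.112 for Ifit3 (without 5-day replicate 2), 0.0966 for Oas1a and 0.0659 for Xaf1 (without 5-day replicate 5) and 0.0915 for Rtp4 (without 5-day replicate 2). Isg15, a ubiquitin-like protein attached to other proteins, did not pass, with 9.81 to 16.3 CPM at 15 hours and 1.60 to 6.93 CPM at 5 days (log2 fold change −2.04, SE 0.40, adjusted p = 0.113).

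The genes in the following paragraphs on guanylate-binding proteins, macrophage genes and the chemokine Ccl7 are partly outside the rule for naming genes. Of the 42 genes, 23 met that rule, and the other 19, among them Gbp5, Gbp2 and Siglec1, were considered after their values had been seen.

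Guanylate-binding proteins and immunity-related GTPases, which attack vacuoles that hold parasites or bacteria, are induced mainly by interferon gamma. Gbp3 was at 38.6, 32.7, 31.7, 30.7 and 29.7 CPM at 15 hours and at 12.3, 11.2, 8.78, 8.21 and 10.2 CPM at 5 days. No 5-day library reached the lowest 15-hour one (log2 fold change −1.68, SE 0.13, adjusted p = 0.000879). In RW the range was 9.61 to 14.6 CPM at 15 hours and 9.55 to 20.5 CPM at 5 days. Gbp5 was at 12.3 to 16.1 CPM at 15 hours and at 5.71 to 6.31 CPM at 5 days (log2 fold change −1.19, SE 0.11, adjusted p = 0.00396). Gbp2 went from 30.9 to 36.7 CPM at 15 hours to 14.9 to 20.3 CPM at 5 days (log2 fold change −0.96, SE 0.12, adjusted p = 0.0220, and 0.0933 without 5-day replicate 5). The GTPase gene Tgtp2 was at 3.36 to 4.24 CPM at 15 hours and 0.515 to 1.43 CPM at 5 days (log2 fold change −2.05, SE 0.30, adjusted p = 0.0322, and 0.129 without 5-day replicate 5). Igtp and Irgm2, of the same GTPase family, passed with changes of −1.16 and −0.83 on the log2 scale, but their exons overlap each other and reads could be split between them.

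The interferon-stimulated response element (ISRE) is the DNA motif that Stat2 with Irf9 and other Irf factors bind. Promoters in RefSeq (GRCm38.p6) were searched for GAAANNGAAA, or TTTCNNTTTC on the other strand, in the 250 bases before the start site. Of the 42 genes, 29 had a promoter entry. The motif was present for 12 of 23 lower genes (Aif1, Bst2, Gbp2, Gbp3, Gbp5, Gm12250, H2-T23, Ifit3, Igtp, Irgm2, Oas1a and Tgtp2) and for 0 of 6 higher genes. Among all 32851 promoter windows of that length, 978 held it (2.98%). By gene, as the changed genes were counted, 936 of 27025 had it in any window. The palindromic E-box CACGTG, which clock factors bind, was in 6.02% of all windows (1854 of 27025 genes) and in 0 of the 29 genes. The heat-shock motif GAANNTTCNNGAA was in 0.466% of all windows (139 of 27025 genes) and in that of Bst2 only among the 29. A match describes the letters, not binding, and an absence covers only these letters in the 250 bases searched. Stretches of 80 bases are given for 6 lower genes to let the motif be read in its setting, 5′ to 3′ on the strand of the gene, with the ISRE matches in capitals.
Bst2, chr8:71537555-71537634, minus strand, bases −162 to −83 from the start site: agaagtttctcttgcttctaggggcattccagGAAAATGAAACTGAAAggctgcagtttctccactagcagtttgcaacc
Gbp3, chr3:142559964-142560043, plus strand, bases −80 to −1: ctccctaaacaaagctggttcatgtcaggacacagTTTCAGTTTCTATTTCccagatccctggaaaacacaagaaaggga
Gbp5, chr3:142496734-142496813, plus strand, bases −200 to −121: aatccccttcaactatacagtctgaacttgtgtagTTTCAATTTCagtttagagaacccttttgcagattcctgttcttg
Ifit3, chr19:34583355-34583434, plus strand, bases −174 to −95: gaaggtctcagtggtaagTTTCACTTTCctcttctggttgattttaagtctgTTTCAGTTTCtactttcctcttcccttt
Oas1a, chr5:120907526-120907605, minus strand, bases −80 to −1: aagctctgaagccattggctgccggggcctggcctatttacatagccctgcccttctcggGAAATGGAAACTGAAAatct
Tgtp2, chr11:49064238-49064317, minus strand, bases −105 to −26: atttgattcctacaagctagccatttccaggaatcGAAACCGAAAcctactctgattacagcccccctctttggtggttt

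Bst2, Gbp3, Ifit3 and Oas1a each hold 2 matches in the stretch shown, overlapping ones in all but Ifit3, and Gbp5 and Tgtp2 hold 1. Gbp3 has 2 promoter entries, and the motif is in 1 of them.

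The other genes that passed include some known from macrophages and monocytes, among them Fcgr1, Siglec1, Ccl7 and Aif1 (log2 fold change −1.32 for Aif1). None of the 11 genes on the list of macrophage and dendritic cell markers passed in edgeR. Fcgr1, the high-affinity receptor for IgG, was at 7.64, 8.16, 5.11, 6.30 and 7.25 CPM at 15 hours and at 1.97, 2.27, 1.89, 1.84 and 1.48 CPM at 5 days. The groups were well separated (log2 fold change −1.86, SE 0.20, adjusted p = 0.00861), and the adjusted p was at most 0.0458 when any library was left out. Siglec1, a sialic-acid receptor of macrophages that interferon induces, was at 6.72 to 14.1 CPM at 15 hours and 2.58 to 4.63 CPM at 5 days (log2 fold change −1.63, SE 0.24, adjusted p = 0.0299, and 0.126 without 5-day replicate 5). Ccl7, a chemokine that draws monocytes, was at 1.93, 2.60, 1.61, 1.88 and 2.48 CPM at 15 hours and at 0.648, 0.241, 0.175, 0.275 and 0.161 CPM at 5 days. It had the lowest fold change of the 42 (log2 −2.81, SE 0.40, adjusted p = 0.0295, and 0.115 without 5-day replicate 2). At these low levels Ccl7 entered the test through its 15-hour libraries. In RW, Ccl7 was at 0.326 to 1.17 CPM at 15 hours and 0.492 to 8.68 CPM at 5 days, with overlapping groups (log2 2.62, adjusted p = 0.0861, and 2.72 with adjusted p = 0.0330 without RW replicate 3 at 5 days).

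The macrophage and dendritic cell list had a median of −0.26 and a smallest adjusted p of 0.0810 in edgeR. DESeq2, which called 337 of all genes, called 3 of the 11 on this list, C1qa, C1qb and C1qc. At an unadjusted p under 0.05, 5 of the 11 were lower (5.95% of all genes) and 1 was higher (4.47% of all genes). The complement genes C1qa and C1qb, made by resident macrophages, had 46.5 to 68.5 and 46.5 to 66.9 CPM at 15 hours, and 22.7 to 36.6 and 25.9 to 37.3 CPM at 5 days. Neither overlapped between the times (log2 fold changes −0.90 and −0.83, adjusted p = 0.0980 and 0.0810). The summed level of the list was 231 to 318 CPM at 15 hours and 181 to 258 CPM at 5 days, and the groups overlapped. Of the 11 members, 6 had negative and 5 positive changes. The part of macrophage number in the change of the interferon-stimulated genes was not tested.

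Acute-phase proteins are secreted, chiefly by the liver, within hours of inflammation. Of the 20 genes on the list of acute-phase and neutrophil genes, 11 passed the filter on low counts and were tested. Hp and Lrg1 passed, both lower at 5 days (0.188% of all genes), and all 11 tested had negative changes (median −1.54). DESeq2 called 5 of the 11, and 337 of all genes. The filter can keep a gene through its 15-hour libraries alone, as for S100a8 below. The sign of such a gene was then partly fixed in advance. Hp encodes haptoglobin, which binds free haemoglobin. It was at 489, 516, 483, 539 and 549.5 CPM at 15 hours and at 166, 126, 163, 263 and 157 CPM at 5 days. Every 5-day library held less than the lowest 15-hour one (log2 fold change −1.54, SE 0.22, adjusted p = 0.0295). RW thyroids held 82.2 to 225 CPM at 15 hours and 75.5 to 279 CPM at 5 days. Lrg1, a glycoprotein that rises in inflammation and acts on endothelium, was at 14.1, 18.7, 19.9, 18.8 and 20.4 CPM at 15 hours and at 6.93, 3.78, 4.64, 8.10 and 3.18 CPM at 5 days (log2 fold change −1.77, SE 0.27, adjusted p = 0.0358). In RW, Lrg1 had a lower mean at 5 days (log2 fold change −1.19, adjusted p = 0.113, and −1.37 with adjusted p = 0.0293 without RW replicate 3 at 5 days). Leaving out a library raised the adjusted p to at most 0.126 for Hp (without 5-day replicate 5) and 0.132 for Lrg1 (without 5-day replicate 2).

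The neutrophil genes S100a8 and S100a9 were read mainly in 1 library. S100a8 was at 27.5 CPM in replicate 2 at 15 hours, at 0.446 to 1.95 CPM in the other 15-hour libraries and at 0.0344 to 0.299 CPM at 5 days (log2 fold change −5.23, SE 1.32, adjusted p = 0.211). These 2 genes were named after their values had been seen. Ltf, on the same list, made up most of its summed level in the libraries with airway markers (8540 and 24228 CPM in replicates 2 and 5 at 15 hours and 8709 CPM in replicate 1 at 5 days).

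Heat-shock proteins fold other proteins and are induced by heat and other stress, whereas Cirbp and Rbm3 are induced by mild cold. All 13 genes of this list were tested, and Hspa8 and Hsp90aa1 passed, both lower at 5 days (0.188% of all genes). DESeq2 called 7 of the 13, and 337 of all genes. Of the 13, 12 had negative changes (median −0.97) and 10 had an unadjusted p under 0.05 in that direction (5.95% of all genes). Hspa8 encodes the constitutive Hsc70 chaperone. It was at 36.9, 31.9, 42.7, 39.9 and 49.5 CPM at 15 hours and at 18.4, 23.5, 17.9, 20.1 and 20.5 CPM at 5 days, without overlap (log2 fold change −0.99, SE 0.14, adjusted p = 0.0295). Small nucleolar RNA genes lie within Hspa8 on the same strand. Hsp90aa1, the inducible Hsp90, was at 9.81 to 16.1 CPM at 15 hours and 6.18 to 6.77 CPM at 5 days (log2 fold change −1.03, SE 0.16, adjusted p = 0.0380). The adjusted p rose to at most 0.110 for Hspa8 and 0.143 for Hsp90aa1, each without 5-day replicate 5. Cirbp was the only member with a positive change, from 23.7 to 48.4 CPM at 15 hours to 42.5 to 70.1 CPM at 5 days (log2 0.54, SE 0.20, adjusted p = 0.395).

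In RW, 2 of the 13 genes on this list passed (1.73% of all genes), Dnaja1 higher and Cirbp lower at 5 days. Of the 13, 10 had positive changes and the median was 0.71. Without RW replicate 3 at 5 days, 7 passed, 5 higher and 2 lower, and the median was 0.26 (3529 of all genes passed in that fit). Hspa8 was at 16.8 to 21.1 CPM at 15 hours and at 22.9 to 57.3 CPM at 5 days, without overlap (log2 fold change 0.94, SE 0.22, adjusted p = 0.0609, and 0.77 with adjusted p = 0.0149 without RW replicate 3 at 5 days).

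Serpinh1 encodes Hsp47, a chaperone of the endoplasmic reticulum that folding collagen needs and that belongs to the heat-shock genes by its regulation. It was at 176, 225, 202, 186 and 216 CPM at 15 hours and at 95.3, 66.9, 64.3, 64.8 and 66.2 CPM at 5 days. Replicate 1 was the highest 5-day library but still below all 15-hour ones (log2 fold change −1.49, SE 0.15, adjusted p = 0.00413). It was the only one of the 20 genes for collagen folding and crosslinking that passed in edgeR, and DESeq2 also called P4ha1. Of the 20, 19 had negative changes with a median of −0.32, and 4 were lower at an unadjusted p under 0.05 (5.95% of all genes). P4ha1, which hydroxylates collagen prolines, was at 60.8 to 103 CPM at 15 hours and 39.0 to 61.1 CPM at 5 days (log2 fold change −0.87, SE 0.16, adjusted p = 0.0941). None of the 17 collagen genes passed in edgeR or DESeq2 (median −0.34, smallest adjusted p = 0.383). At an unadjusted p under 0.05, 2 of the 17 were lower (5.95% of all genes).

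The circadian clock is a loop in which Arntl (Bmal1) with Clock or Npas2 activates the Per, Cry and Nr1d genes and outputs such as Dbp, whose products in turn repress the activators. Of 13 genes on the list of the negative limb and output, 4 passed, each higher at 5 days (0.0442% of all genes). Positive changes were found for 12 of the 13, and the median was 0.63. At an unadjusted p under 0.05, 8 were higher (4.47% of all genes) and 1, Cry1, was lower. Nr1d1, which encodes the repressor REV-ERB alpha, was at 16.5, 34.3, 54.1, 50.2 and 37.7 CPM at 15 hours and at 193, 150, 155, 124 and 175 CPM at 5 days. The lowest 5-day library was above every 15-hour one (log2 fold change 2.05, SE 0.28, adjusted p = 0.0295). Its exons overlap Thra on the opposite strand, which makes its level uncertain. Nr1d2, the paralogous REV-ERB beta, was at 16.5, 17.7, 17.8, 19.6 and 24.2 CPM at 15 hours and at 57.6, 63.8, 45.7, 44.9 and 53.9 CPM at 5 days (log2 fold change 1.48, SE 0.14, adjusted p = 0.00413).

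Dbp, a factor whose level follows the clock closely, was at 1.67, 1.75, 2.33, 1.98 and 2.26 CPM at 15 hours. At 5 days it was at 6.19, 24.1, 11.4, 6.29 and 21.3 CPM. The 15-hour libraries were close together and the 5-day libraries were widely spread, all above them (log2 fold change 2.80, SE 0.41, adjusted p = 0.0322). Dbp overlaps Sphk2 on the opposite strand. Per3 was at 17.2, 14.3, 15.0, 12.0 and 12.1 CPM at 15 hours and at 27.4, 43.7, 27.9, 23.7 and 42.2 CPM at 5 days (log2 fold change 1.23, SE 0.19, adjusted p = 0.0360). Replicates 2 and 5 were the highest 5-day libraries for both genes.

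The same 2 libraries were the lowest for Arntl, which was at 48.8 to 60.6 CPM at 15 hours and at 47.8, 9.83, 33.0, 34.8 and 11.5 CPM in replicates 1 to 5 at 5 days. All 5-day values were below the 15-hour ones, but the change did not pass (log2 fold change −0.94, SE 0.40, adjusted p = 0.459). Npas2 was at 22.1 to 44.3 CPM at 15 hours and 8.80 to 35.0 CPM at 5 days, with overlap (log2 −0.91, SE 0.36, adjusted p = 0.434). None of the 6 genes of the positive limb passed in edgeR or DESeq2 (median −0.53), and 2 were lower at an unadjusted p under 0.05 (5.95% of all genes). The adjusted p reached at most 0.110 for Nr1d1 and 0.129 for Per3 (each without 5-day replicate 5) and 0.119 for Dbp (without 15-hour replicate 4). In the 5 libraries with a low skeletal muscle share only, 2 at 15 hours and 3 at 5 days, it was 0.254 for Nr1d1 and 0.108 for Per3.

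**Figure D3:**
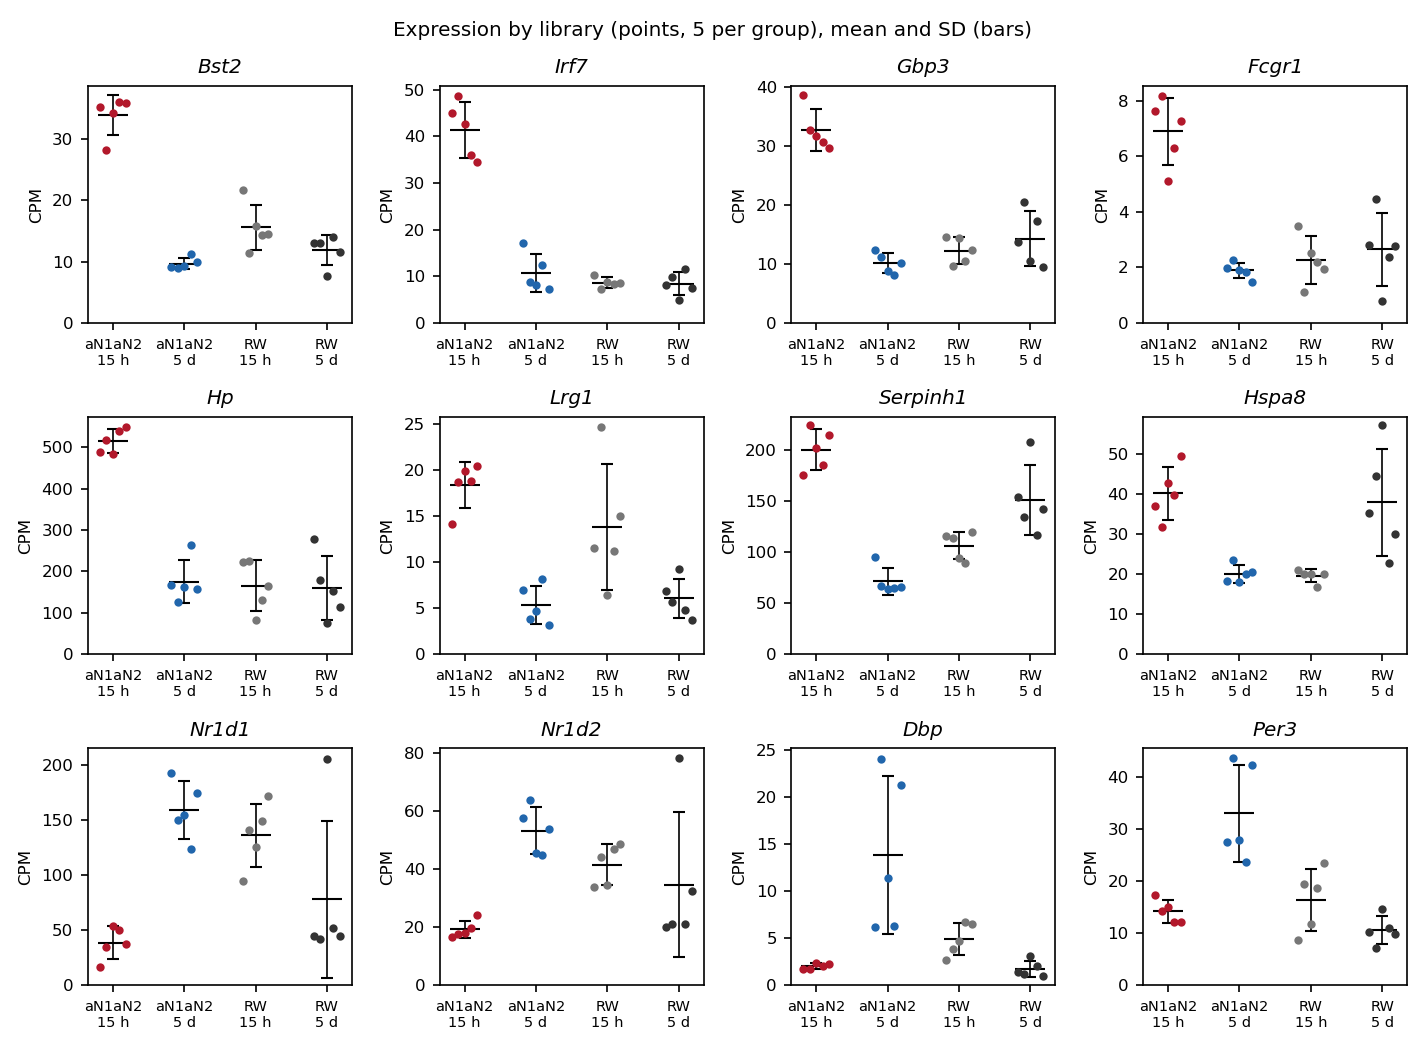
CPM of 12 genes in each library of aN1aN2 and RW thyroids at 15 hours and 5 days; points are libraries (5 per group) and bars are the mean and SD, on axes that start at 0. Bst2, Irf7, Gbp3, Fcgr1 and Hp are higher in each aN1aN2 library at 15 hours than in any of the other 15 libraries shown, and Nr1d1 and Nr1d2 are lower in the aN1aN2 libraries at 15 hours than at 5 days.

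The other 4 higher genes belong to no common list. Zbtb16, a transcriptional repressor that glucocorticoids induce in many tissues, was at 19.7, 37.4, 58.0, 29.2 and 45.3 CPM at 15 hours and at 130, 116, 102, 96.2 and 163 CPM at 5 days (log2 fold change 1.68, SE 0.28, adjusted p = 0.0485). It was the only one of 11 glucocorticoid-responsive genes that passed in edgeR, DESeq2 also called Klf9, and their median was −0.01. Klf9 here and Dnaja1 above were named after their values had been seen. Hif3a, of the hypoxia-inducible factor family, was at 1.67 to 2.81 CPM at 15 hours and 4.45 to 9.37 CPM at 5 days (log2 1.62, SE 0.24, adjusted p = 0.0336). Insr, the insulin receptor, was at 89.2 to 116 CPM at 15 hours and 134 to 162 CPM at 5 days (log2 0.63, SE 0.10, adjusted p = 0.0358). The olfactory receptor gene Olfr920 was at 0.566 to 1.09 CPM and 1.62 to 2.23 CPM (log2 1.37, SE 0.22, adjusted p = 0.0380). The adjusted p of these 4 genes reached 0.165 (Zbtb16, without 15-hour replicate 4), 0.117 (Hif3a), 0.142 (Insr) and 0.143 (Olfr920, the last 3 without 5-day replicate 2). Next in order of p among the higher genes were Fam214a (log2 0.75, adjusted p = 0.0514) and Sema3g (log2 0.78, adjusted p = 0.0941), which did not pass.

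None of the 38 genes for Notch receptors, ligands, targets and machinery that were tested passed in edgeR or DESeq2. At an unadjusted p under 0.05, 5 of the 38 were lower (5.95% of all genes) and 2 higher (4.47% of all genes). Notch1 was at 20.1 to 79.1 CPM at 15 hours and 33.5 to 84.9 CPM at 5 days (log2 0.22, SE 0.36, adjusted p = 0.886). Notch2 was at 61.4 to 122 and 68.5 to 158 CPM (log2 0.30, SE 0.27, adjusted p = 0.746). Notch3 was at 31.2, 26.3, 35.0, 31.5 and 21.2 CPM at 15 hours and at 14.4, 16.8, 24.9, 19.9 and 22.3 CPM at 5 days. The 2 groups overlapped, with the 3 lowest libraries all at 5 days (log2 −0.54, SE 0.18, adjusted p = 0.352). In RW, Notch3 ranged from 28.9 to 45.7 CPM at 15 hours and from 28.9 to 40.1 CPM at 5 days.

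Among the targets, 6 of 7 were tested and had changes from −1.39 to −0.00 (median −0.29). Heyl was at 13.6 to 31.4 CPM at 15 hours and 10.3 to 29.2 CPM at 5 days (log2 −0.28, SE 0.32), Hes1 at 17.96 to 42.0 and 18.9 to 46.5 CPM (log2 −0.09, SE 0.28), and Hey1 at 4.68 to 9.59 and 5.84 to 8.45 CPM (log2 −0.00, SE 0.21). The adjusted p of these 3 genes was 0.811, 0.951 and 0.998, and the direction of Hey1 changed with another scaling or tool and that of Hes1 with library quality weights. Nrarp, a feedback inhibitor and direct target of Notch, was at 0.318 to 0.754 CPM at 15 hours and 0.137 to 0.300 CPM at 5 days without overlap (log2 −1.39, SE 0.35, adjusted p = 0.209). It passed the filter on low counts through its 15-hour libraries only, so its direction and lack of overlap were partly fixed in advance. In RW the log2 fold change of Nrarp was −2.28 (adjusted p = 0.0880), and −3.18 (adjusted p = 0.00291) without RW replicate 3 at 5 days. The ligand Dll4, a marker of arterial and tip cell endothelium, was at 5.41 to 8.54 CPM and 6.10 to 16.2 CPM (log2 0.77, SE 0.26, adjusted p = 0.353), and Jag2 was at 21.4 to 41.9 and 15.1 to 27.6 CPM (log2 −0.50, SE 0.22, adjusted p = 0.471).

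Of 12 mural cell genes none passed in edgeR (median −0.18), and DESeq2 called 1, Rgs5. At an unadjusted p under 0.05, 3 of the 12 were lower (5.95% of all genes). Rgs5, the regulator of G protein signalling that marks pericytes, was closest, at 194, 220, 238, 204 and 241 CPM at 15 hours and at 141, 82.4, 77.7, 108 and 71.5 CPM at 5 days. The groups did not overlap, yet the adjusted p was 0.0514 (log2 fold change −1.18, SE 0.20). In RW it was at 192 to 290 CPM at 15 hours and 248 to 576 CPM at 5 days (log2 0.39, adjusted p = 0.497, and 0.13 with adjusted p = 0.560 without RW replicate 3 at 5 days). Ndufa4l2, another pericyte marker, was at 3.51 to 14.0 CPM and 1.24 to 4.69 CPM with overlap (log2 −1.75, SE 0.54, adjusted p = 0.327). None of the 14 endothelial genes passed in edgeR or DESeq2 (median 0.01), and 1 was lower at an unadjusted p under 0.05 (5.95% of all genes).

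None of the 21 genes tested in 3 lists for hormone production, its control and hormone transport passed in edgeR or DESeq2, and 0 had an unadjusted p under 0.05. Tg was at a log2 fold change of 0.50 (SE 0.91, adjusted p = 0.900). Slc5a5 was at 87.8, 33.4, 78.7, 116 and 45.4 CPM at 15 hours and at 13.4, 83.5, 25.6, 10.7 and 84.7 CPM at 5 days. Of the 5-day libraries, 3 lay below the 15-hour range and 2 inside it (log2 −0.71, SE 0.61, adjusted p = 0.731). Tshr was at 48.0 to 191 and 22.3 to 87.7 CPM (log2 −0.59, SE 0.51, adjusted p = 0.730).

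Cell cycle genes show how 1 library can set a list. All 27 tested had positive changes with a median of 1.28, and none passed in edgeR or DESeq2 or had an unadjusted p under 0.05 (smallest adjusted p = 0.480). Their summed level was 1106 CPM in replicate 4 at 5 days and 106 to 215 CPM in the other 9 libraries. Without that library, which also held the T cell markers, the median was −0.35. The median of the 5 thymus and T cell markers tested was 2.71 with it and −0.77 without it. The interferon-stimulated list had medians of −1.49 with and −1.49 without the same library. Of the 38 lists in all, 6 had a member that passed in edgeR, and the plot of list members shows 16 of them.

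**Figure D4:**
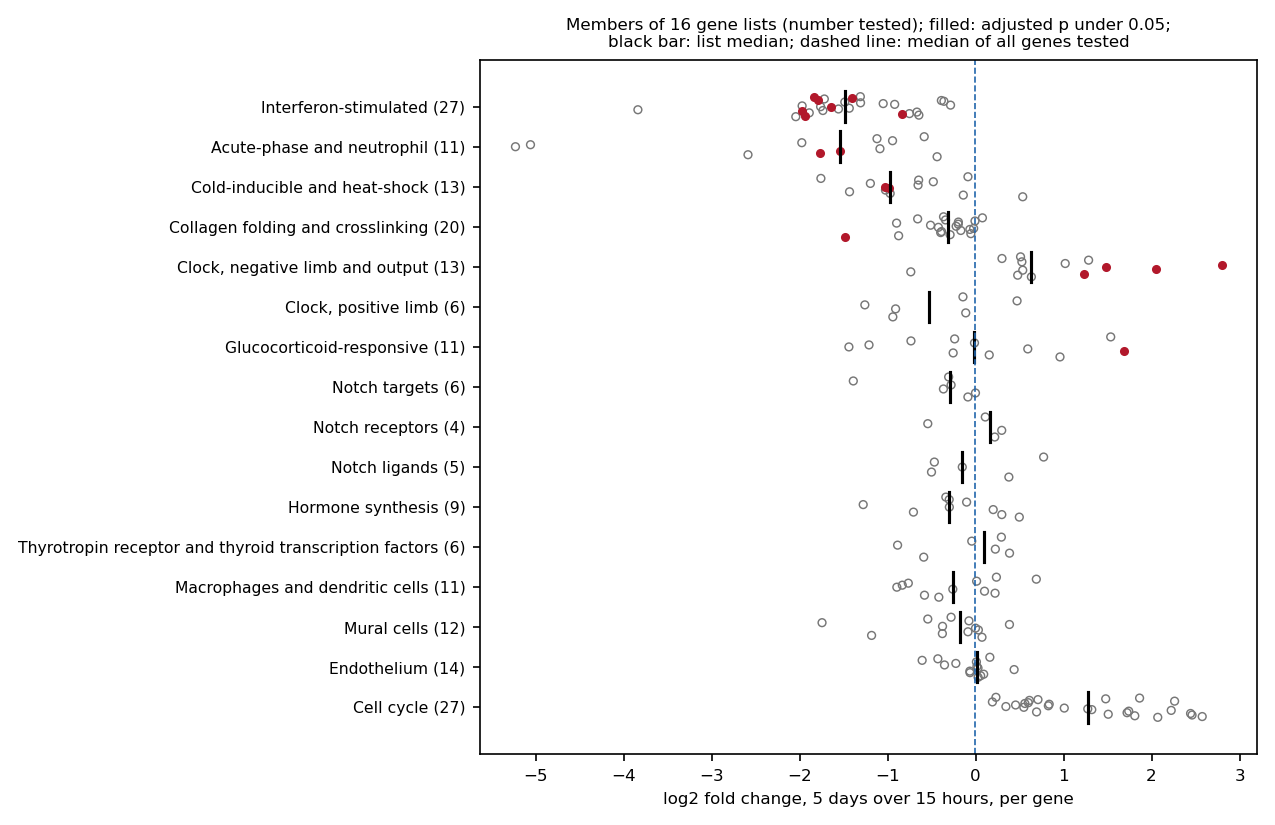
Log2 fold change (5 days over 15 hours) of the members of 16 gene lists in aN1aN2 thyroids; each point is a gene, filled where the adjusted p was under 0.05, the black bar is the list's median and the dashed line is the median of all genes tested (−0.01). The 27 interferon-stimulated genes all lie below 0 and the 27 cell cycle genes all above, the latter without a member that passed.

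The same 2 times were compared in RW thyroids, where 305 of 17626 genes passed (1.73%), 208 lower (1.18%) and 97 higher (0.55%) at 5 days. This split turned with 1 library and with the tool: without RW replicate 3 at 5 days 3529 passed, 1676 lower and 1853 higher, and DESeq2 called 1923, 888 lower and 1035 higher. The deposited FPKM values fall into 2 blocks by their scaling. Both aN1aN2 groups and RW at 5 days lie in 1 block and RW at 15 hours in the other, so block and time cannot be told apart in RW. Of the 40 changed genes also tested in RW, 0 passed there in edgeR, where 1.73% of all genes passed. At an unadjusted p under 0.05 there were 9 of the 40, beside 3135 of the 17626 genes, and DESeq2 called 6. Of the 32 lower ones, 24 had RW log2 fold changes between −0.5 and 0.5. This share was not counted over all genes, so it does not set the lower genes apart. Without RW replicate 3 at 5 days, 8 of the 40 passed in RW. With 3529 genes passing in that fit, passing did not set the 40 apart from other genes. Of the 8, 7 went in the opposite direction to aN1aN2 (Ccl7, Dbp, Hsp90aa1, Hspa8, Nr1d1, Nr1d2 and Olfr920) and 1, Lrg1, in the same direction.

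The difference between the time effects was tested as an interaction over the 20 libraries, and 228 of 18946 genes passed (1.2%), 151 lower (0.797%) and 77 higher (0.406%) in aN1aN2 relative to RW. With RW replicate 3 at 5 days left out, 531 passed, 323 lower and 208 higher. Of the 42 changed genes, 27 passed this test, 23 of them lower and 4 higher, and 15 did not. The 42 were chosen by their change in aN1aN2, which is part of this difference, so a share above that of all genes was built in. Without RW replicate 3 at 5 days the 27 all passed again and 6 more did. For Bst2 the time effect was lower than in RW by a log2 difference of −1.41 (SE 0.23, adjusted p = 0.00530), and for Gbp3 by −1.91 (SE 0.27, adjusted p = 0.00222). These values were −1.54 and −2.02 (adjusted p = 0.000886 for each) without RW replicate 3. Serpinh1, which was at 89.5 to 120 CPM in RW at 15 hours and at 117 to 208 CPM at 5 days, had a difference of −1.997 (SE 0.22, adjusted p = 0.000464), and −1.87 with an adjusted p of 5.16e-05 (SE 0.18) without that library. For Hp the difference of −1.52 (SE 0.44) had an adjusted p of 0.108, and 0.0315 without that library. Lrg1 was at −0.60 (SE 0.46, adjusted p = 0.630), and at −0.40 (adjusted p = 0.657) without it.

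Of the 13 genes of the negative limb and output, 3 passed the test of the difference, all higher in aN1aN2 relative to RW (0.406% of all genes). These were Dbp, Nr1d1 and Per3. They had also passed in aN1aN2, which is part of this difference, so a high share was built in. In RW itself 0 of the 13 passed in edgeR, 6 had positive and 7 negative changes, and the median was −0.06. Without RW replicate 3 at 5 days, 7 passed in RW, 5 lower and 2 higher, with a median of −0.72 (3529 of all genes passed in that fit). Nr1d1 was at 94.6 to 172 CPM in RW at 15 hours and at 45.0, 42.1, 206, 52.2 and 44.7 CPM in RW replicates 1 to 5 at 5 days. The difference of time effects was 2.85 (SE 0.58, adjusted p = 0.0175), and 3.60 (SE 0.35, adjusted p = 5.16e-05) without RW replicate 3. Dbp was at 2.70 to 6.72 CPM in RW at 15 hours and 0.921 to 3.12 CPM at 5 days, a difference of 4.29 (SE 0.58, adjusted p = 0.00138). It was 4.60 with that replicate left out (SE 0.56, adjusted p = 0.000669). Nr1d2 had an adjusted p of 0.0537 with all libraries (difference 1.74, SE 0.43) and 8.25e-05 without RW replicate 3 (difference 2.27). The plot of the time effects in both treatments shows the 40 genes tested in each.

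**Figure D5:**
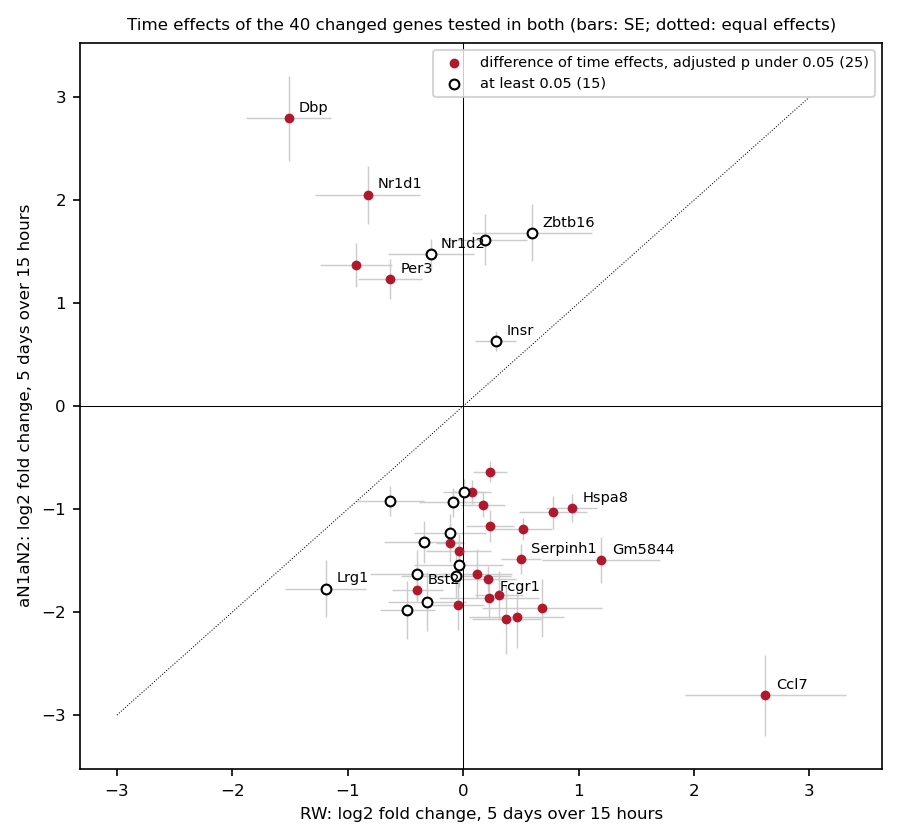
Log2 fold change from 15 hours to 5 days in RW (horizontal) and aN1aN2 (vertical) for the 40 changed genes tested in both, with SE bars; filled points passed the test of the difference between the time effects. Of the 32 lower genes, 24 lie between −0.5 and 0.5 in RW, a share not counted over all genes. Ccl7 and Hspa8 were positive and Dbp and Nr1d1 negative in RW, opposite to aN1aN2.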

How the data were processed

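Gene expression was measured by RNA-seq of mouse thyroid in 50 libraries, of which the 10 aN1aN2 libraries at 15 hours and 5 days and, as a reference, 10 RW libraries were analysed here. Per the labels' protocols, total RNA was sequenced as single-end reads of 50 bases. GSNAP and limma are named without versions in the submitters' processing notes, while a genome build, a counting program and a strand setting are not stated there. Read counts for 52636 genes, as whole numbers without normalization, and FPKM values were both deposited by the authors. Symbols came from GENCODE M21 by Ensembl ID for 52403 genes, and 233 had none. The titles gave each library its group and number. No label says outright that each library is a separate mouse, so p-values measure the spread between these samples. No replicate pair agreed within sampling noise (smallest of 40 chi-square statistics 18.8 per degree of freedom).

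The test on counts was that of edgeR 4.0.16 under R 4.3.3, with genes kept by filterByExpr (minimum count 10, minimum total 15), TMM factors, a robust quasi-likelihood fit, two-sided, Benjamini-Hochberg adjustment over all genes tested, threshold 0.05. The filter keeps a gene that reaches the minimum in as many libraries as a group holds, so a gene can enter through a single group. Standard errors came from the F statistic. Levels are CPM on TMM-scaled sizes of the 20 libraries. Shares of counts were compared by exact permutation in scipy 1.17.1. Alternatives were DESeq2 1.42.0, limma 3.58.1 with library quality weights or on log2(FPKM + 0.1) and log2(FPKM + 1), RLE size factors, no count filter, a replicate block, a skeletal muscle covariate, fits with more groups, and each library left out. A fit of only the libraries with at most 4% skeletal muscle counts was added after seeing the data. Replicate numbers did not pair the libraries.

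Genes were named by a rule: the Notch and thyroid genes, the 10 protein-coding genes with the largest fold change in each direction that passed with a mean of at least 1 CPM and without overlap, and up to 4 that passed per list (up to 2 by smallest p where none did). Some genes are not reported here. The groups, the 38 gene lists and the rule were chosen with earlier results of these data known. On simulated counts for this comparison with 18094 genes, the test recovered 59.1% of genes set to a log2 change of −2 and 66.0% of those set to 2, but 13.0% at −1 and 12.0% at 1. Promoters were searched in RefSeq's table for GRCm38.p6, used for sequence only.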

Additional observations from a re-analysis of the deposited data

Results flagged for a closer look

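Among the genes named above, 9 libraries lay far from the other 4 of their group in level (gap over range above 0.71). Of 106 groups tested, chance gives about 1 in 20. At 5 days, replicate 1 was high for Rtp4 (10.1 CPM), Ccl7 (0.648 CPM), Serpinh1 (95.3 CPM), Ndufa4l2 (4.69 CPM) and Isg15 (6.93 CPM). At 15 hours, Bst2 was low in replicate 2 (28.2 CPM), Lrg1 was low in replicate 1 (14.1 CPM), Oas1a was high in replicate 1 (10.2 CPM) and Tshr was high in replicate 4 (191 CPM). None of these values moved a gene into the range of the other time for the genes that passed.

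The change from 15 hours to 5 days differed between aN1aN2 and RW, by the interaction test over 20 libraries, for 24 of the 50 genes named, against 1.2% of all genes. Many of the 50 were named for their change in aN1aN2, which is part of this difference, so a high share was built in. Block and time cannot be told apart in RW, so these differences hold the block of the RW libraries too. Without RW replicate 3 at 5 days all 24 passed with the same sign (adjusted p from 5.16e-05 to 0.0183), and the value of mt-Co3 moved most, to −3.12. The log2 difference (aN1aN2 minus RW) of the interferon-stimulated genes was −1.41 for Bst2, −1.90 for Irf7, −2.16 for Rtp4, −1.38 for Xaf1 and −2.24 for Isg15. For the GTPase genes it was −1.91 for Gbp3, −1.73 for Gbp5, −1.14 for Gbp2 and −2.54 for Tgtp2. Among the macrophage and chemokine genes it was −2.09 for Fcgr1, −1.76 for Siglec1 and −5.41 for Ccl7. The chaperone and collagen genes had −1.997 for Serpinh1, −1.95 for Hspa8, −1.82 for Hsp90aa1 and −1.61 for P4ha1, and cold-inducible Cirbp had 1.78. The clock genes had 2.85 for Nr1d1, 4.29 for Dbp and 1.86 for Per3. The other values were 2.28 for Olfr920, 1.23 for Fam214a, −1.59 for the pericyte gene Rgs5 and −4.43 for the mitochondrially encoded mt-Co3. Exons of mt-Co3 overlap mt-Atp6 on the same strand. Of the 13 mitochondrially encoded genes, 0 passed in aN1aN2 in edgeR (median −0.02) and 5 passed the test of the difference.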

How the results depend on the processing

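All 42 genes kept their sign under each alternative. Against 42 genes (8 higher, 34 lower), DESeq2 called 337 (111 higher, 226 lower), library quality weights 314, the skeletal muscle covariate 165, the fit of 30 libraries at both times 126 (47 higher, 79 lower), the libraries with a low skeletal muscle share 107 and the fit without a count filter 24. With the replicate block 0 genes passed in aN1aN2 (811 at an unadjusted p under 0.05). The numbers share no stated origin, and same-numbered libraries correlated at −0.74 to −0.05 with 0 of 5 pairs over 0.1, so they were not treated as pairs. Leaving out each library gave 6 to 41 genes. In RW, against 305 genes, DESeq2 gave 1923, no count filter 172, the replicate block 6, quality weights 5211, the muscle covariate 1598, and leaving out each library 58 to 3529 (3529 without RW replicate 3 at 5 days). For the difference of time effects, against 228 genes, the values were 753 with DESeq2, 100 with the replicate block, 1304 with quality weights, 982 with the muscle covariate and 133 to 531 with a library left out (531 without RW replicate 3 at 5 days). The cause of these shifts was not tested. The difference in skeletal muscle share (0.615 percentage points) became negative without 15-hour replicate 1 or 4 or 5-day replicate 1 or 4, between −0.884 and 1.502 over the libraries left out. Some genes that did not pass changed sign. Hey1 (log2 difference −0.00127) was at 0.0194 with RLE size factors, 0.0234 with DESeq2, 0.0276 with the replicate block, 0.0888 with quality weights, 0.00774 with 30 libraries, 0.0439 and 0.0229 on log2(FPKM + 0.1) and log2(FPKM + 1), 0.0931 with low-muscle libraries, and −0.121 to 0.144 with a library left out. Hes1 (−0.0872) was at 0.0175 with quality weights and −0.326 to 0.0364 with a library left out. At this spread a 2-fold change of a single gene is seldom detected, so a gene that did not pass may still differ.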
